A study of Mus musculus with 6 samples.

Results

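The genes encoding the S100 proteins and the annexins were examined in mouse mesenchymal stem cells (MSCs) with and without conditional deletion of Pcif1. Members were all rows whose gene symbol was S100a followed by a number, S100b, S100g, S100p, S100z, or Anxa followed by a number. The rule took 24 of the 20071 Ensembl genes in the count table, of which 14 were S100 genes and 10 were annexin genes. The rule reads gene symbols only. Of the 24 genes, 19 had enough counts to be tested, 9 of them S100 genes and 10 annexin genes. S100a9, the usual partner of S100a8, is not analysed here.

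MSCs are marrow stromal cells able to give rise to osteoblasts. They were isolated from the femurs of C57BL/6J mice aged 6 weeks and were cultured for 7 days in osteogenic medium with ascorbic acid, β-glycerophosphate and dexamethasone, so that every library carries the same glucocorticoid exposure. The control group, labelled WT, came from Pcif1fl/fl littermates, which carry the loxP-flanked allele without Cre, and the other group, labelled Pcif1 CKO, came from Prrx1-Cre;Pcif1fl/fl mice; they are called control and knockout here, with their replicate numbers. Prrx1-Cre is active in limb mesenchyme, so blood-derived cells in a marrow culture would keep Pcif1. Each genotype had 3 poly(A) RNA libraries, while the design text of the series speaks of duplicates. The sources used here do not tie the libraries to separate mice, so p-values measure the spread between these libraries only. In such bulk samples, fewer cells of a type and less RNA per cell cannot be told apart.

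S100 proteins are small calcium sensors of the EF-hand type. On binding calcium they expose a surface that grips target proteins, and several of them also act outside the cell through receptors such as RAGE (Ager) and Tlr4. Annexins bind acidic phospholipids of membranes in the presence of calcium, and serve in membrane repair, vesicle traffic and the handling of plasminogen at the cell surface. The families meet in physical pairs, since S100a10 binds annexin A2 and S100a11 binds annexin A1. In bone, annexins are known from matrix vesicles, the particles in which mineral first forms.

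PCIF1 places the m6Am mark on the base next to the cap of an mRNA where that base is adenosine. For this reason the windows around the annotated starts of members on which the results turn are shown, 20 bases before to 10 bases from the start on the strand of the gene, from RefSeq on GRCm38.p6, with the first annotated base in capitals.
S100b, chr10:76253816-76253845, plus strand: attggcagcctcagcctgcaGtggactgcg
S100a8, chr3:90669051-90669080, plus strand: gctgacacttagcctcacatAtcctttgtc
S100a6, chr3:90612874-90612903, plus strand: cagaaggttcagcacacaagCcagagtttc
S100a11, chr3:93520476-93520505, plus strand: gggacccggaccccgaccgcCactcctgtc
Anxa2, chr9:69453663-69453692, plus strand: gggtataaaagccccacccaGcccagccgg
In these RefSeq windows S100a8 has A as its first base and the other 4 do not. The annotations disagree, because the longest GENCODE M21 transcript begins with T for S100a8, with A for S100a6 and with C for S100b, so the first base of these mRNAs is not settled here. With 1 start per gene, 5 of the 19 members with an entry (26.3%) began with A, against 29.0% of the 10686 tested genes with an entry and 35.4% of all 27025 genes with an entry. Of those 19 members, S100a3, S100a5 and S100g were not among the genes tested for expression. The TATAAA sequence, searched on both strands from 250 bases before to 50 after the start, was found in 5 of the 19 members (26.3%), in 7.21% of the tested genes and in 14.2% of all genes. The GGGCGG sequence, searched in the same way, was found in 5 members (26.3%), in 63.6% of the tested genes and in 35.9% of all genes. These are matches of letters at annotated starts, and the starts used in these cells were not measured. Anxa3, Anxa6, S100a10, S100a14 and S100a2 had no entry.

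The libraries held 20258209 to 28227696 counts. control 3 stood apart, with 3.63% of its counts on mitochondrial genes against 1.40% to 1.57% in the other 5 libraries. Of 12635 tested genes with a mean of at least 1 CPM (counts scaled to library size with TMM factors), 604 (4.78%) differed at least 2-fold in that library from the mean of controls 1 and 2. Results are therefore also given without it. Counts per gene did not differ for Pcif1 beyond the spread between libraries (39.3 to 42.8 CPM against 37.8 to 39.7 CPM, adjusted p = 0.645, edgeR), and they do not show the deleted exons. Xist, expressed from an inactive X chromosome, ranged from 232 to 443 CPM in control and from 0.722 to 1.79 CPM in knockout libraries, and the Y-linked Ddx3y from 48.4 to 62.2 and from 99.1 to 104 CPM. The sex make-up of the cultures and the genotype thus cannot be told apart. All 16 genes of the mesenchymal and osteoblast list were in the table, and their summed level was 24882 to 28955 CPM in control and 30748 to 40346 CPM in knockout libraries. Spp1, at 9543 to 16544 and 11786 to 19992 CPM, took the largest share of that sum. Of 15 genes of the list tested, 4 were lower (Sp7, Alpl, Ibsp and Pdgfra, with log2 fold changes of -1.88, -1.11, -1.25 and -0.42) and 6 higher (Thy1, Lum, Postn, Col1a2, Col1a1 and Vim, at 1.52, 1.02, 0.69, 0.64, 0.61 and 0.57) at an adjusted p under 0.05, beside 4.51% of all genes tested lower and 2.88% higher, and Bglap was at 0.0450 to 0.249 CPM. The number of higher genes was 2 without control 2, 1 or 2 without any one knockout library and 8 without control 3, where 11.1% of all genes were higher. The 14 macrophage markers summed to 32763 to 36141 CPM and to 33665 to 36855 CPM, so the labelled MSCs also carried abundant macrophage RNA, and the part of those cells in the results below was not tested.

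Per kilobase of the union of its annotated exons, S100a11 was the most abundant member at 579 CPM per kb (mean of 6 libraries). It was followed by Anxa5 at 319, S100a6 at 294, Anxa1 at 252, S100a10 at 227, Anxa2 at 152, Anxa6 at 115 and S100a1 at 72.1 CPM per kb. This order depends on the length used, since the union of exons exceeds the longest annotated transcript unequally. The union was 1367 against 783 bases for S100a6, 2911 against 1674 for Anxa1 and 1212 against 685 for S100a10. It was 1777 against 1731 bases for Anxa5, and both lengths were 511 for S100a11. An order by transcript length was not computed. By the union, the order also differed between group means. S100a6 was at 205 CPM per kb in controls, below Anxa5, Anxa1 and S100a10 (284, 230 and 213). In knockouts S100a6 was at 383 CPM per kb, above all 3 (353, 274 and 240). Its control mean rests on control 3, because S100a6 was at 282, 257 and 76.4 CPM per kb in controls 1 to 3, beside 240, 259 and 192 for Anxa1 and 235, 217 and 187 for S100a10. The abundant members of both families thus include both pairs, S100a10 with Anxa2 and S100a11 with Anxa1. Reads of S100a11 may be shared, because 41.1% of its 50-base stretches also occur in other annotated genes. At the other end, S100b stood at 3.88, S100a4 at 1.83, S100a8 at 1.26 and Anxa9 at 1.24 CPM per kb.

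**Figure D1:**
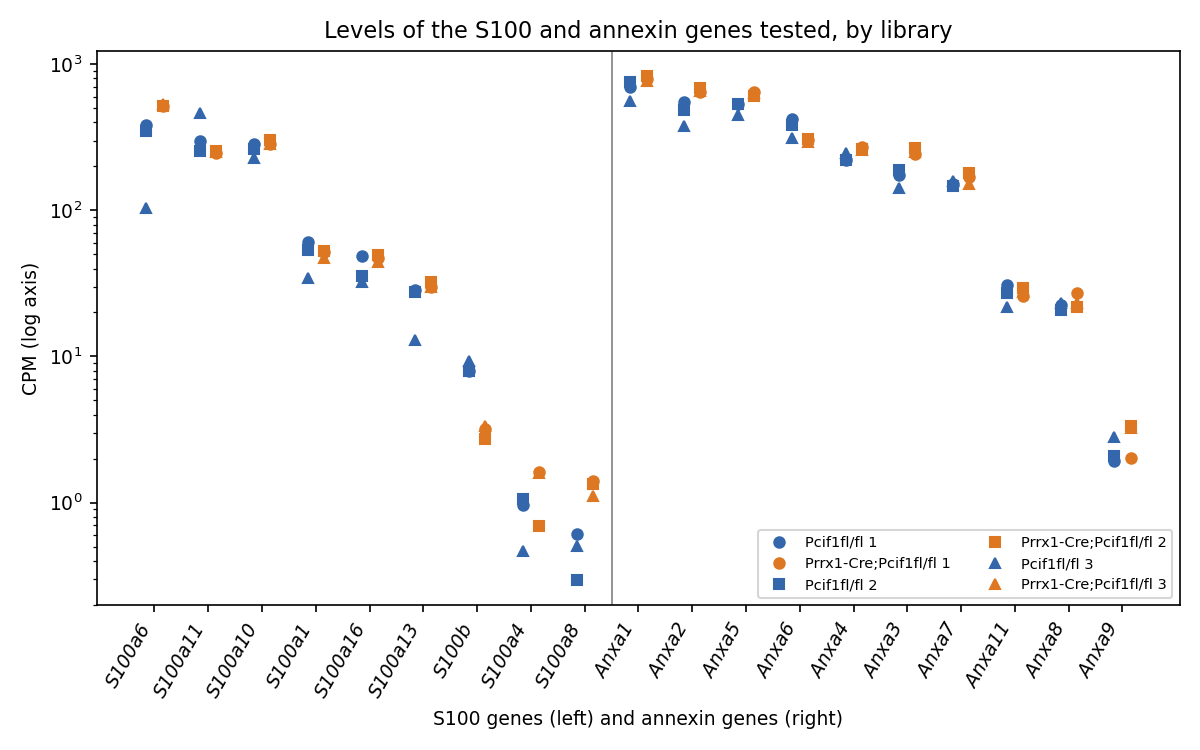
Level of each tested S100 gene (left of the line) and annexin gene (right of the line) in CPM on a log axis, 1 point per library, blue for Pcif1fl/fl and orange for Prrx1-Cre;Pcif1fl/fl, with the marker shape giving the replicate number. The blue triangles of S100a6 and S100a11, at 104 and 467 CPM, lie far from the other blue points.

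Of the 9 S100 genes tested, 1 was lower (S100b) and 1 was higher (S100a8) in knockout MSCs at an adjusted p under 0.05, from the quasi-likelihood test of edgeR, adjusted by Benjamini-Hochberg over all 13733 genes tested. Among all genes tested, 4.51% were lower and 2.88% higher by the same rule, or 7.40% in either direction. Both S100 genes also changed at least 2-fold, as did 2.50% of all genes downwards and 1.03% upwards. The median log2 fold change of the 9 genes was 0.29, beside 0.0017 for all genes tested, with single genes from -1.45 to 1.45. The median was 0.13 without control 3 and 0.49 without control 1. In 1 S100 gene every knockout library lay below every control library, as in 15.7% of all genes, and in 3 genes above, as in 15.0% of all genes.

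S100b encodes a calcium sensor best known from glia, and also made by adipocytes and chondrocytes. It was at 7.99, 7.90 and 9.36 CPM in controls 1 to 3 and at 3.20, 2.74 and 3.32 CPM in knockouts 1 to 3. The groups were well apart, and control 3 was the highest library. Mean levels were 8.42 ± 0.816 and 3.08 ± 0.307 CPM (SD, n = 3 each), and the log2 fold change was -1.45 with a standard error of 0.16 (edgeR adjusted p = 0.0013). These levels rest on 183 to 261 counts in the controls and 55 to 71 counts after deletion. The gene lies on chromosome 10 from 76253853 to 76261159 (GENCODE M21, GRCm38) and no annotated exon of another gene overlaps it. The call held in all 13 alternative fits, with log2 fold changes of -1.50 to -1.36.

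Markers of the cell types known for S100b moved unequally. Of the 8 adipocyte markers tested, 5 were lower (Adipoq, Plin1, Cfd, Pparg and Cidec) and 0 higher by edgeR, beside 4.51% and 2.88% of all genes. At an unadjusted p under 0.05, 1 was higher, and DESeq2 called 1 higher. Adipoq, an adipokine gene, went from 53.8, 42.9 and 44.3 CPM to 1.49, 0.697 and 0.289 CPM, a log2 fold change of -5.80 (adjusted p = 0.000111, edgeR). The summed level of the 9 adipocyte markers in the table still overlapped, at 763 to 803 CPM in control and 662 to 863 CPM in knockout libraries, but most of it was Lpl (316 to 499 CPM) and Cebpa (190 to 327 CPM), so this sum says little of the 5 genes that were lower. Without control 3, 6 adipocyte markers were lower and 2 (Fabp4 and Lpl) higher, beside 10.4% and 11.1% of all genes. Of 5 chondrocyte markers tested, Comp was lower and 0 were higher by edgeR, beside 4.51% and 2.88% of all genes. There was 1 higher at an unadjusted p under 0.05 and 1 by DESeq2. The 8 markers in the table summed to 65.0 to 93.9 and 68.8 to 79.1 CPM. Without control 3, 1 chondrocyte marker was lower and 2 were higher, beside 10.4% and 11.1% of all genes. Of 5 Schwann cell and glial markers tested, 0 changed by edgeR, by DESeq2 or at an unadjusted p under 0.05. The 10 glial markers summed to 75.9 to 93.1 CPM in controls and 68.3 to 85.4 CPM after deletion, most of it Mbp, while Sox10, which defines the lineage, was at 0 to 0.404 CPM. The part of these cells in the fall of S100b was not tested.

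S100a8 encodes a subunit of calprotectin, the alarmin of neutrophils and activated macrophages. It was at 0.611, 0.294 and 0.502 CPM in controls 1 to 3 and at 1.40, 1.34 and 1.11 CPM in knockouts 1 to 3. The groups did not overlap, but the values rest on 8 to 14 counts per control library and 23 to 31 per library after deletion. The mean rose from 0.469 ± 0.161 to 1.28 ± 0.154 CPM (SD, n = 3 each), or 1.45 as log2 fold change with a standard error of 0.34 (edgeR adjusted p = 0.0394). The call was lost in 7 of 13 alternatives, among them those without control 1 or 2 and without any one knockout library, with adjusted p up to 0.161 and log2 fold changes of 1.18 to 1.67. Of the 5 neutrophil markers tested, Lcn2 was lower and 0 were higher by edgeR, beside 4.51% and 2.88% of all genes. At an unadjusted p under 0.05 or by DESeq2, 0 were higher. Without control 3, 2 were lower and 0 higher, beside 10.4% and 11.1% of all genes. The 11 markers in the table summed to 16.5 to 20.8 CPM and 16.3 to 21.3 CPM, and Ly6g, Mpo, Ngp and Retnlg had 3 counts or fewer in every library. Of the 14 macrophage markers, 0 changed by edgeR, with 1 lower and 2 higher at an unadjusted p under 0.05 and 2 higher by DESeq2. Without control 3, 1 of them (Csf1r) was lower and 3 (Itgam, Cd14 and Ptprc) were higher by edgeR, beside 10.4% and 11.1% of all genes.

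**Figure D2:**
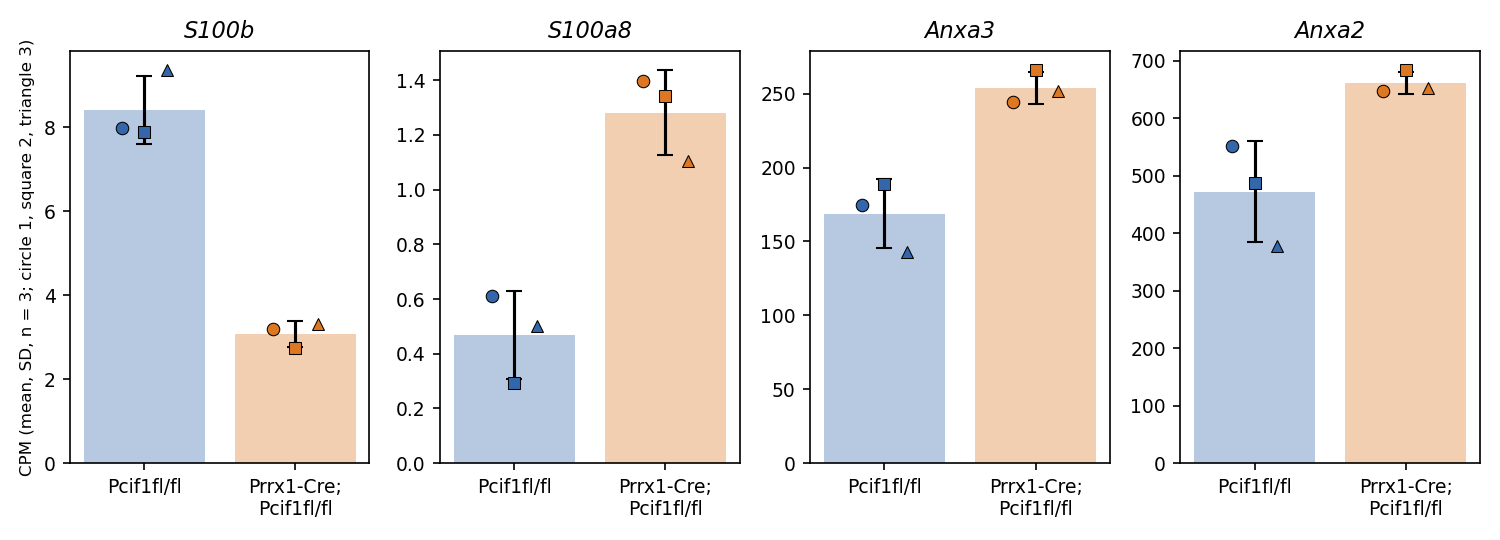
CPM of S100b, S100a8, Anxa3 and Anxa2 from 0, with bars for the mean, error bars for the SD (n = 3) and points for the libraries of Pcif1fl/fl (blue) and Prrx1-Cre;Pcif1fl/fl (orange) MSCs. All orange points of S100b lie below the blue ones, at 2.74 to 3.32 CPM, and in the other 3 panels all lie above.

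Among the abundant S100 genes, 1 control library stood apart. S100a6 (calcyclin, a binding partner of several annexins) was at 385, 351 and 104 CPM in controls 1 to 3 and at 515, 521 and 536 CPM in knockouts 1 to 3. All libraries with the deletion were above all controls, and the low value of control 3 was 0.284 times the mean of the other controls. The means were 280 ± 153 and 524 ± 10.6 CPM (SD, n = 3 each), a log2 fold change of 0.90 (standard error 0.39) that did not pass the test (adjusted p = 0.234, edgeR). Without control 3 the log2 fold change was 0.51 and passed it (adjusted p = 2.54e-05, edgeR).

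S100a11, the annexin A1 partner, moved the other way in the same library. It was at 297, 255 and 467 CPM in controls 1 to 3 and at 246, 257 and 252 CPM in knockouts 1 to 3. The groups overlapped, and control 3 was 1.69 times the mean of the other controls. The log2 fold change was -0.43 with a standard error of 0.20 (edgeR adjusted p = 0.262) and -0.13 without that library (adjusted p = 0.202). As a share of the summed CPM of the family, S100a11 took 26.7%, 25.7% and 52.6% in the controls and 20.8% to 21.0% after deletion. S100a6 took 34.6%, 35.3% and 11.7% in the controls and 42.7% to 44.6% after deletion.

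S100a10, the light chain of the annexin A2 complex, has lost calcium binding and stays in its active shape. Its level was 285, 263 and 227 CPM in controls 1 to 3 and 285, 304 and 284 CPM in knockouts 1 to 3, with overlap between the groups. The log2 fold change was 0.17 with a standard error of 0.10 (edgeR adjusted p = 0.392), and it was 0.091 without control 3 and 0.023 with GC content and length corrected for. S100a10 kept close to a constant share of the family, from 23.7% to 26.4% in all 6 libraries. S100a1, known from the calcium cycle of muscle, was at 60.5, 53.4 and 34.2 CPM and at 51.8, 52.7 and 47.4 CPM. Its groups overlapped and its log2 fold change was 0.037 with a standard error of 0.19 (edgeR adjusted p = 0.933), turning to -0.17 without control 3 and to -0.084 once GC content and transcript length were corrected for.

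**Figure D3:**
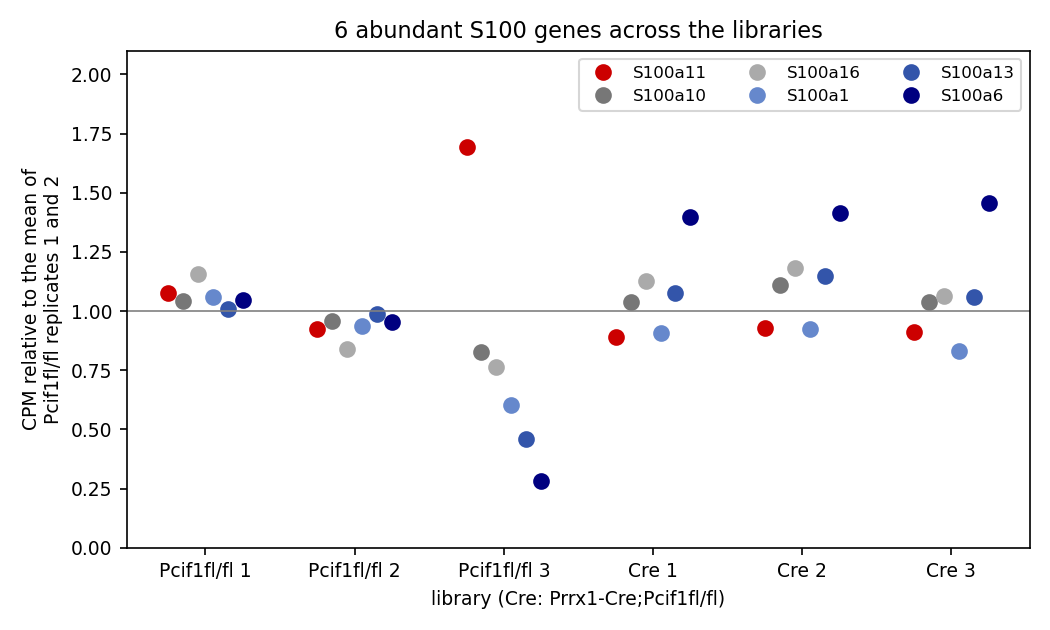
CPM of 6 S100 genes in each library, relative to the mean of Pcif1fl/fl replicates 1 and 2 (grey line at 1). In Pcif1fl/fl replicate 3, S100a11 lies at 1.69 while S100a6, S100a13 and S100a1 lie at 0.284, 0.461 and 0.601.

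The remaining S100 genes did not pass the test with all 6 libraries. S100a13, which takes part in the non-classical release of growth factors, was at 12.9 to 28.3 CPM in controls and 29.7 to 32.2 CPM after deletion, with a log2 fold change of 0.42 (adjusted p = 0.412) and of 0.13 without control 3. S100a16 was at 32.1 to 48.6 and 44.6 to 49.5 CPM, with a log2 fold change of 0.29 (adjusted p = 0.343). Without control 1 the log2 fold change of S100a16 was 0.49 and passed the test (edgeR adjusted p = 0.0484), and without control 3 it was 0.18. S100a4, a marker often used for fibroblasts, had 13 to 36 counts per library and a log2 fold change of 0.66 with a standard error of 0.43 (edgeR adjusted p = 0.432). The log2 fold change of S100a4 was 0.37 without control 3 and 0.95 without knockout 2. Also, 51.7% of its exonic bases overlap another annotated gene. S100a14, S100a2 and S100a3 had at most 6, 7 and 5 counts in any library and were not tested. S100a5 and S100g had 3 counts or fewer in every library, at the floor of detection. By position, 12 of the 14 S100 genes lie on chromosome 3 between 90511034 and 93564643, and S100b and S100g lie elsewhere.

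Of the 10 annexin genes tested, 1 was higher (Anxa3) and 0 were lower in knockout MSCs by edgeR, beside 2.88% of all genes higher and 4.51% lower. For the lower direction, 1 gene (Anxa6) had an unadjusted p under 0.05, and DESeq2 also called 0. Of the 10 log2 fold changes, 9 were above 0, with a median of 0.23 and a range of -0.30 to 0.59, against 6908 of the 13733 genes tested. In 5 annexin genes (Anxa1, Anxa2, Anxa3, Anxa4 and Anxa5) every library with the deletion lay above every control, as in 15.0% of all genes, and in 1 (Anxa6) below, as in 15.7%. Without control 3, 4 annexin genes (Anxa2, Anxa3, Anxa4 and Anxa5) were higher and Anxa6 was lower, beside 11.1% of all genes higher and 10.4% lower in that fit.

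Anxa3 encodes a less studied annexin found in phagocytes and endothelium. It was at 174, 189 and 143 CPM in controls 1 to 3 and at 244, 266 and 252 CPM in knockouts 1 to 3, without overlap. The mean rose from 169 ± 23.5 to 254 ± 11.0 CPM (SD, n = 3 each), or 0.59 as log2 fold change with a standard error of 0.12 (edgeR adjusted p = 0.0183). The gene spans chromosome 5 from 96793339 to 96845966, and 3.07% of its exonic bases overlap another gene on the same strand. Without knockout 1, 2 or 3 the adjusted p was 0.076, 0.101 and 0.0865, with log2 fold changes of 0.56 to 0.62. Of 8 endothelial markers tested, 0 changed by edgeR, beside 4.51% of all genes lower and 2.88% higher. At an unadjusted p under 0.05, 1 was lower and 1 higher, and DESeq2 called 1 lower. Without control 3, edgeR called 1 lower and 1 higher, beside 10.4% and 11.1% of all genes.

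Anxa2 encodes the heavy chain that S100a10 binds, a surface anchor for plasminogen and its activator. It was at 552, 488 and 377 CPM in controls 1 to 3 and at 647, 683 and 653 CPM in knockouts 1 to 3. The groups did not overlap, and control 3 was again the lowest. With means of 472 ± 88.2 and 661 ± 19.4 CPM (SD, n = 3 each), the log2 fold change was 0.49 (standard error 0.14), which missed the threshold (adjusted p = 0.0723, edgeR). It passed in 5 of 13 alternatives, at an adjusted p of 0.0204 with DESeq2 and of 0.00122 without control 3, where the log2 fold change was 0.35. Across all 13 the adjusted p reached 0.235. The gene spans chromosome 9 from 69453620 to 69491795, and 2.63% of its exonic bases overlap an antisense gene.

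Anxa1, a mediator of the anti-inflammatory action of glucocorticoids, was the annexin with the highest CPM, at 698, 755 and 559 CPM in controls and 788, 831 and 774 CPM after deletion. The groups did not overlap, but the log2 fold change of 0.25 (standard error 0.12) did not pass the test (adjusted p = 0.283, edgeR), and it was 0.14 without control 3. Its receptors are formyl peptide receptors, and Fpr1 and Fpr2 had log2 fold changes of 0.14 and 0.36 (adjusted p = 0.698 and 0.338). Without control 3 the log2 fold change of Fpr1 was 0.36 and passed the test (edgeR adjusted p = 0.0118). Anxa5, which binds phosphatidylserine and is a major annexin of matrix vesicles, was at 532, 532 and 451 CPM in controls and 642, 603 and 637 CPM after deletion. Its log2 fold change was 0.31 with a standard error of 0.097 (edgeR adjusted p = 0.0983), and 0.24 without control 3 (adjusted p = 0.00932, edgeR).

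Anxa6, an annexin built of a duplicated core and also found in matrix vesicles, was the only annexin gene below 0 with all 6 libraries. It was at 420, 384 and 315 CPM in controls 1 to 3 and at 302, 310 and 294 CPM in knockouts 1 to 3. The groups were separated by the narrow gap between 310 and 315 CPM. The log2 fold change was -0.30 with a standard error of 0.12 (edgeR adjusted p = 0.171), and -0.41 without control 3 (adjusted p = 0.000196). Its share of the summed CPM of the annexins was 15.0%, 13.9% and 13.7% in controls and 9.57% to 9.69% after deletion.

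Among the other annexins, Anxa4, which associates with epithelial and secretory membranes, was at 222 to 247 CPM in controls and 259 to 272 CPM after deletion (log2 fold change 0.20, adjusted p = 0.223). Anxa7 was at 147 to 160 and 150 to 182 CPM, and Anxa8 at 20.8 to 23.2 and 22.0 to 27.1 CPM. Anxa11, which tethers RNA granules to lysosomes, was at 21.9 to 31.0 and 25.8 to 29.6 CPM. Its log2 fold change of 0.056 turned to -0.063 without control 3, and 16.2% of its 50-base stretches occur in other genes. Anxa9 was scarce, at 1.92 to 2.83 and 2.03 to 3.33 CPM. The groups of Anxa7, Anxa8, Anxa9 and Anxa11 overlapped, and the log2 fold changes were 0.13, 0.12 and 0.32 for Anxa7, Anxa8 and Anxa9 (edgeR adjusted p = 0.517, 0.616 and 0.547). That of Anxa9 ranged from 0.20 to 0.52 when 1 library was left out.

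**Figure D4:**
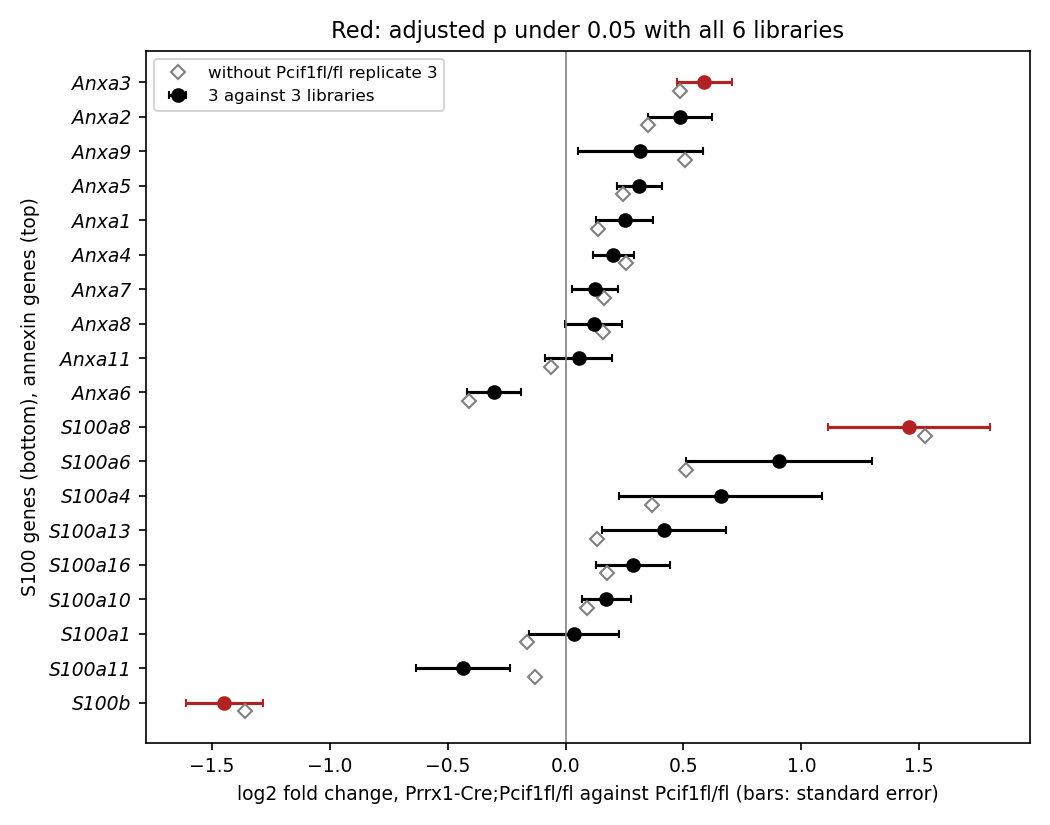
Log2 fold change of Prrx1-Cre;Pcif1fl/fl against Pcif1fl/fl MSCs for the 19 tested members, with bars for the standard error and red for an adjusted p under 0.05. Open diamonds give the value without Pcif1fl/fl replicate 3, which moves S100a6 from 0.90 to 0.51 and S100a11 from -0.43 to -0.13.

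The partners of the annexins were examined as a list of 22 genes that holds receptors, membrane repair factors and plasminogen activation genes. Of 19 tested, 6 were higher and 0 lower, with 8 higher and 0 lower at an unadjusted p under 0.05, and 7 higher and 0 lower by DESeq2. Among all genes tested, 2.88% were higher and 4.51% lower. The median log2 fold change was 0.21. The 3 with the smallest p-values were Plaur, Plat and Plau. Plgrkt, a plasminogen receptor, had a log2 fold change of 0.019 (edgeR adjusted p = 0.949). Plaur, the urokinase receptor, rose from 13.2, 10.6 and 11.4 CPM to 32.6, 35.4 and 28.6 CPM (log2 fold change 1.46, standard error 0.14, adjusted p = 0.000504, edgeR). Both activators were also higher.

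Plat, the tissue-type activator, went from 16.1, 16.9 and 16.7 CPM to 27.5, 26.7 and 30.0 CPM (log2 fold change 0.76, standard error 0.11, adjusted p = 0.00359). Plau, urokinase itself, went from 54.1, 42.0 and 37.1 CPM to 85.2, 99.8 and 82.3 CPM (log2 fold change 1.00, standard error 0.15, adjusted p = 0.00547). Cav1, the coat protein of caveolae, went from 110, 117 and 143 CPM to 176, 179 and 176 CPM (log2 fold change 0.52, standard error 0.11, adjusted p = 0.0271). These 4 genes were picked by their small p-values, so their lack of overlap is no separate result. Of the 19 genes of the list tested, 9 had all knockout libraries above all controls and 0 had all below. Over all genes tested these shares were 15.0% and 15.7%. The other 2 called genes were the membrane repair genes Dysf and Myof, with log2 fold changes of 0.48 and 0.41. The number of higher genes was 3 without control 2 and 3 without any one library of the other genotype, and it was 9 without control 3, where 11.1% of all genes were higher.

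**Figure D5:**
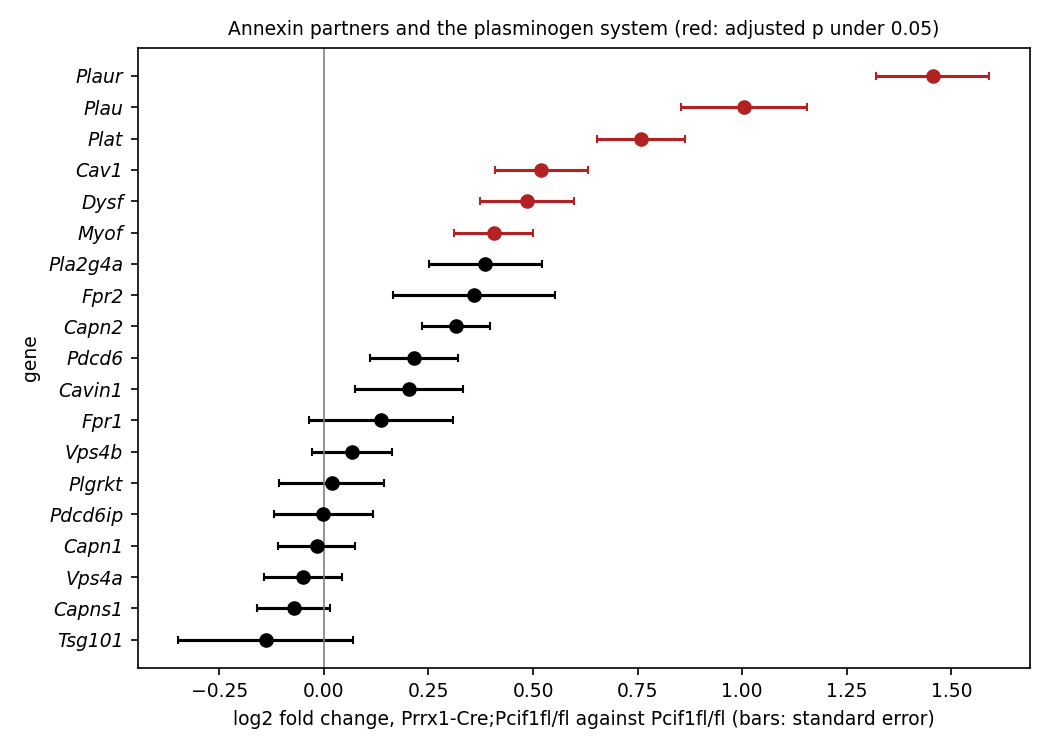
Log2 fold change of the 19 tested annexin partners, receptors and plasminogen activation genes, with bars for the standard error and red for an adjusted p under 0.05. Plaur, Plau and Plat lead at 1.46, 1.00 and 0.76.

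The list of 20 S100 partners and receptors had 19 tested genes, of which 2 were higher and 0 lower, with 5 higher and 1 lower at an unadjusted p under 0.05, and 2 higher and 0 lower by DESeq2, beside 2.88% of all genes higher and 4.51% lower. Ahnak2, a relative of the giant scaffold that S100a10 and annexin A2 bind, rose from 115 ± 9.64 to 154 ± 5.96 CPM (SD, n = 3 each; log2 fold change 0.43, adjusted p = 0.0299, edgeR). Mdm2, the p53 ubiquitin ligase that several S100 proteins bind, rose from 179 ± 27.2 to 268 ± 2.90 CPM (log2 fold change 0.58, adjusted p = 0.0195, edgeR). No gene of the list was higher without control 2 or without any one knockout library, and 7 were higher without control 3, as were 11.1% of all genes. Of the receptors, Tlr4 had a log2 fold change of 0.078 (adjusted p = 0.781), and Ager was at 0.0900 to 0.551 CPM and was not tested.

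Proteins that bind calcium by the same or by other means served as a comparison. Of 33 other EF-hand genes tested, 1 was lower and 1 higher, with 3 higher and 5 lower at an unadjusted p under 0.05 and a median log2 fold change of 0.068. Over all genes tested the shares were 4.51% lower and 2.88% higher. None was called higher with the replicate block or without control 1, control 2 or any one knockout library, and 5 were higher and 4 lower without control 3, beside 11.1% and 10.4% of all genes. Smoc1, a secreted matrix protein, fell from 19.0 ± 1.99 to 4.96 ± 1.21 CPM (SD, n = 3 each; log2 fold change -1.93, adjusted p = 0.000759, edgeR), and Calu, calumenin of the secretory pathway, rose from 532 ± 8.50 to 677 ± 16.3 CPM (log2 fold change 0.35, adjusted p = 0.0357). Of 9 tested genes for membrane binders with C2 domains, 2 were lower and 0 higher (4.51% and 2.88% of all genes), with 2 higher at an unadjusted p under 0.05 and 0 by DESeq2. Syt13 of the synaptotagmin family fell from 16.1 ± 2.01 to 2.22 ± 0.511 CPM (SD, n = 3 each; log2 fold change -2.86, adjusted p = 0.000154, edgeR), and Cpne8, a copine, had a log2 fold change of -0.54 (adjusted p = 0.0284). Of the 2 lower calls, 1 was lost with the replicate block and without control 1, control 2 or any one knockout library. Without control 3, 3 genes of the list were higher and 2 lower, beside 11.1% and 10.4% of all genes. In the keratinocyte list, which covers the cells where several S100 genes are abundant, 0 of 3 tested markers changed by edgeR, with 1 lower at an unadjusted p under 0.05 and 1 lower by DESeq2.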

How the data were processed

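The authors sequenced 3 poly(A) libraries per genotype as paired reads, mapped them to mm10 with HISAT2 and deposited raw read counts for each gene. Which program, gene models and strand setting gave the counts is not given in the sources used here, so antisense, overlapping and near-identical genes can share reads. Of 20163 rows, 92 repeated an Ensembl ID with the same counts, and 20071 IDs were used. There were 0 further columns of sample values.

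edgeR 4.0.16 under R 4.3.3 was used with TMM factors, filterByExpr and the quasi-likelihood test (glmQLFit, glmQLFTest) without covariates, over all 13733 genes that passed the filter. Genes at an adjusted p under 0.05 were called at any fold. A standard error is the absolute log2 fold change over the root of its F value. PCR copies were not separable from molecules. Levels per kilobase used the union of the annotated exons of each gene in GENCODE M21 (GRCm38). A gene with 3 counts or fewer in every library was at the floor. The fit was run on simulated counts with 200 genes given large changes, with equal dispersion for all genes and no deviating library. That check does not cover small changes or a library such as control 3. Alternatives were DESeq2 1.42.0, RLE or total-count scaling, other filters, the replicate number as a block, a GC and length correction (library-wise splines, 5 degrees of freedom), a 2-fold threshold and leaving out each library.

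The members and the lists of partners and cell type markers were chosen with earlier results of these data known. Described by library were members at an adjusted p under 0.05, S100b, Anxa2, S100a8 and the 8 members with the highest CPM per kb, and from each partner list at most 4 called genes with the smallest p. Replicate pairs of a genotype gave chi-square values of 2.86 to 106 per gene, so none was a repeat deposit. A gene of the annexin partner list is not reported here and was left out of that list's counts.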

Additional observations from a re-analysis of the deposited data

How the results depend on the processing

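Over all genes, 620 were called lower and 396 higher, and 61.0% of calls were lower. With the GC and length correction 694 genes were higher and 673 lower, so that 49.2% were lower, and the 2-fold threshold left 343 lower and 142 higher. Leaving out 1 library gave 324 to 1447 lower and 148 to 1544 higher genes, the most without Pcif1fl/fl replicate 3, where 48.4% of calls were lower. The count of S100 genes called higher (1) became 0 with the replicate block and 0 with the GC and length correction, and ranged from 0 to 2 when a library was left out. The count of annexin genes called higher (1) became 2 with DESeq2, 2 without an expression filter, 3 with the GC and length correction and 0 with the 2-fold threshold, and ranged from 0 to 4 when a library was left out, while that of annexin genes called lower ranged from 0 to 1. The cause was not tested. The log2 fold change of S100a1 (0.037) reversed to -0.084 with the GC and length correction and ranged from -0.17 to 0.21 when a library was left out, and that of Anxa11 (0.056) from -0.063 to 0.18. The median log2 fold change ranged from 0.13 to 0.49 for the S100 genes and from 0.20 to 0.23 for the annexins, and 1 S100 gene was called lower in every alternative. Deviations from the genotype mean had correlations of 0.070, -0.055 and 0.0027 between libraries of equal replicate number. Between libraries of unequal number the correlations were -0.056 to 0.050. These values do not show a pairing and cannot exclude one. The sources used here do not say that equal numbers mark paired samples, so the replicate block was not read as a paired analysis. It gave 503 lower and 267 higher genes. Depth limits S100a8, S100a4, Anxa9 and the 5 untested members.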
